A study of Homo sapiens with 2 samples.

Results

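Epithelial and mesenchymal cells read a set of shared genes through different exons. The switch is run by RNA-binding proteins, with ESRP1 and ESRP2 on the epithelial side and factors such as RBFOX2, QKI and MBNL1 often acting on the mesenchymal side, and the exons concerned mostly keep the reading frame and lie in proteins of cell junctions, polarity, vesicle traffic and the cytoskeleton. The genes followed here are 8 textbook carriers of such exons: CTNND1, ENAH, CD44, NUMB, EXOC7, SLK, ARHGEF11 and FGFR1. The members were all rows of the splicing tables that carried any of these gene symbols, which gave 253 events of 159490 in all, from 8 of 12254 genes.

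The cells were HEK293T, an established human embryonic kidney line carrying the SV40 large T antigen. The series holds polyadenylated RNA in 1 control library and 1 library of cells given amiloride, a potassium-sparing diuretic, at 300 µg/mL for 6 h. The deposited tables set the 2 libraries against each other for skipped exons (SE), mutually exclusive exons (MXE), alternative 5′ splice sites (A5SS), alternative 3′ splice sites (A3SS) and retained introns (RI). They number the libraries without saying which was treated, so a difference is given as the first minus the second library and its direction with amiloride cannot be told.

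A difference here is that between inclusion levels and runs from -1 to 1. An inclusion level is the share of an event's inclusion form against the skipping or alternative form of that same event. It is not the share of all transcripts of the gene that hold the exon, and an exon can have a different value in each of its events. An event is called where its deposited false discovery rate (FDR) was under 0.1. With 1 library a condition there is no replicate error, and a call compares these libraries, not the conditions. The values of each library, and with them the depth, were not used, because the numbered columns could not be tied to a condition.

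The exons on which the results turn are shown first, so that their splice sites can be read beside the values. Each run gives 20 intron bases, the exon and 10 intron bases of GRCh37 on the transcript strand, 5′ to 3′, and the capitals mark the exon. Exon numbers are those of the canonical GENCODE transcript of each gene. All lie in coding sequence.
CTNND1 N-terminal exon 4 (chr11:57561482-57561553, plus strand, 72 bases): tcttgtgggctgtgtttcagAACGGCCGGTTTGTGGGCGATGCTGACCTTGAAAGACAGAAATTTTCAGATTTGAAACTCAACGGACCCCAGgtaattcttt
CTNND1 exon C (chr11:57573933-57573950, plus strand, 18 bases): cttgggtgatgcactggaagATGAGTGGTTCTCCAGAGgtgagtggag
CTNND1 exon A (chr11:57581783-57581845, plus strand, 63 bases): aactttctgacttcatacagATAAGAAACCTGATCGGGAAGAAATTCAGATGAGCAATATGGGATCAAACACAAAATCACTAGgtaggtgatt
NUMB PTB-domain exon (chr14:73783098-73783130, minus strand, 33 bases): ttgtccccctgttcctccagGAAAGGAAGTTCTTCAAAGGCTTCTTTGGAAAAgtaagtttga
NUMB proline-rich-region exon (chr14:73745989-73746132, minus strand, 144 bases): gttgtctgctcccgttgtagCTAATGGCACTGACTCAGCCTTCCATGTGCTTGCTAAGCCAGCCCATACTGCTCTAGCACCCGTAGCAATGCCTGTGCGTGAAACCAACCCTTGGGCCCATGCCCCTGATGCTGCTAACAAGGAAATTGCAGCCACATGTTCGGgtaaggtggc
EXOC7 cassette exon 7 (chr17:74087224-74087316, minus strand, 93 bases): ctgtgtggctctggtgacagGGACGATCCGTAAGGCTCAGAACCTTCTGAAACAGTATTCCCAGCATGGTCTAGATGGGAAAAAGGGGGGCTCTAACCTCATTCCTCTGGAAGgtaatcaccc
EXOC7 cassette between exons 7 and 8, 69-base form (chr17:74086410-74086478, minus strand, 69 bases): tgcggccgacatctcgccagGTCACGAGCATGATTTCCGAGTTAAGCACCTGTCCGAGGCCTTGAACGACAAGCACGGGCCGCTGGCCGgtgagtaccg
ENAH exon 11a (chr1:225692693-225692755, minus strand, 63 bases): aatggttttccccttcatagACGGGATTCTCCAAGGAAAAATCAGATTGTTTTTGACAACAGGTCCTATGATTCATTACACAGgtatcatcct
ARHGEF11 exon 38 (chr1:156908210-156908305, minus strand, 96 bases): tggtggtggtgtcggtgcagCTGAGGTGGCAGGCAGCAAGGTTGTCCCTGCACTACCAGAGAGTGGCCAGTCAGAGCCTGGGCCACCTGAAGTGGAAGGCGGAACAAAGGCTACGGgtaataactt
ARHGEF11 exon 4 (chr1:156950229-156950278, minus strand, 50 bases): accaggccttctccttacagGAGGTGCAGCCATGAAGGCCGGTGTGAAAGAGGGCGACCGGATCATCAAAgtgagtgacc
ARHGEF11 exon 5 (chr1:156949021-156949078, minus strand, 58 bases): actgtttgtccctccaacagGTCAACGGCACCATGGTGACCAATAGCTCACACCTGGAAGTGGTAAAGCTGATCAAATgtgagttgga
SLK exon 13 (chr10:105770574-105770666, plus strand, 93 bases): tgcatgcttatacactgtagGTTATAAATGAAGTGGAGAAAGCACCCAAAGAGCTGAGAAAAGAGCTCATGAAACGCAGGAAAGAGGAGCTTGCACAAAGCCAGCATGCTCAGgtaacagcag
SLK exon 15 (chr10:105778542-105778666, plus strand, 125 bases): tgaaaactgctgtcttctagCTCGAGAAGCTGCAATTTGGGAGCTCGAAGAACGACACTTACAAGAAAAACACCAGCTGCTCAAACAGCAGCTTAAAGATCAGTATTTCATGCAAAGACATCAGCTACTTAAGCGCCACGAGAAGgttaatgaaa

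Of the 174 SE events of the 8 genes, 51 were called (29.3%), against 27.5% of the 113456 SE events of all genes. The share of the members was thus near the background. In 44 of the called events inclusion was higher in the first library, where 26.4% of all events were called in that direction, and in 7 it was lower, where 1.10% of all events were. Negative differences made up 13.7% of the members' calls and 4.0% of the calls of all genes. Of the 7 negative calls, 6 were events of CTNND1 and 1 was of FGFR1. The CTNND1 events lie at overlapping or neighbouring exons and share junctions, so the share does not describe the 8 genes as a set. The median difference was 0.013 over the members and 0.017 over all genes, and among called events 0.084 and 0.101.

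The events of a gene share exons, so the exons were counted too. The tables tested 91 distinct exons of the 8 genes, 39 of which had a called event (42.9%), beside 35.8% of the 67154 exons of all genes. An exon counts as called if any of its events is, which favours exons with more events. The members had 174 events over 91 exons, and all genes had 113456 over 67154, which is fewer an exon. NUMB had calls at 8 of 11 exons, SLK at 5 of 10, FGFR1 at 7 of 15, CTNND1 at 5 of 11, ARHGEF11 at 7 of 16, ENAH at 4 of 12 and EXOC7 at 3 of 11. CD44 had calls at 0 of 5. A gene with a called SE event was common in the tables, at 66.8% of 11965 genes, and 7 of the 8 members had one. A gene with more events has more chances of a call, and the members held more events each than all genes did. The gene shares are therefore not like for like. In each of these 7 inclusion was higher in the first library in some called event, as in 65.0% of all genes, and in 2, CTNND1 and FGFR1, it was lower in another, as in 8.31% of all genes.

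**Figure D1:**
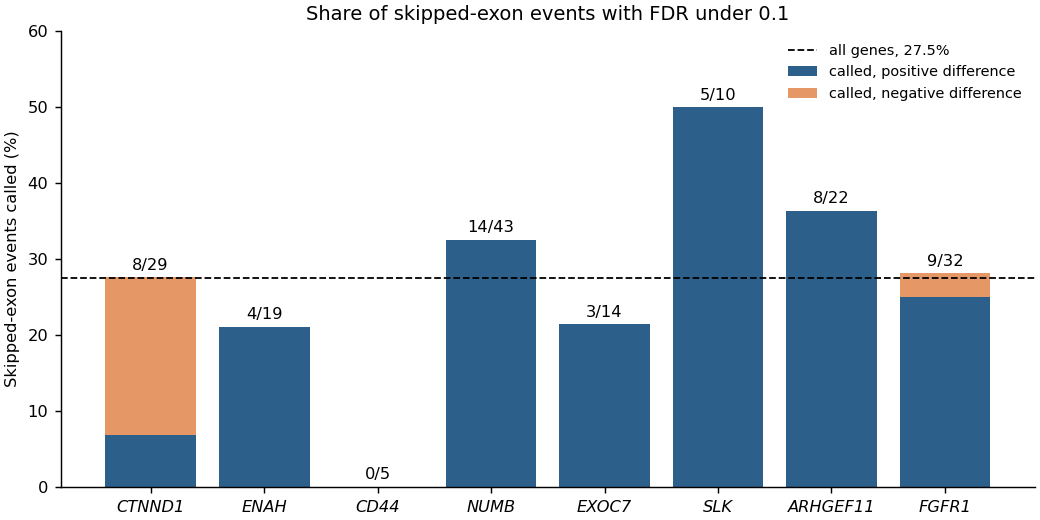
Percentage of each gene's SE events with FDR under 0.1, split into positive and negative differences (first minus second library), with the number called over the number tested above each bar; the dashed line is the 27.5% called over all genes. SLK had the highest share, 5 of 10, CD44 had 0 of 5, and CTNND1 was the gene in which negative differences outnumbered positive ones.

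Among MXE events 23 of 68 were called (33.8%), below the 39.3% of all genes. The inclusion level of such an event belongs to the exon nearer the transcript start, which the effective lengths showed for 65 of the 68 and could not show for the 3 whose exons are equally long. The leading called events outside NUMB, which is described with its exons, were these. SLK exon 5 against exon 6 had a difference of 0.10 (FDR 0.00663), ENAH exon 6 against exon 7 had 0.095 with the FDR listed as 0, and CTNND1 exon 2 against exon 3 had 0.081 (FDR 0.00572). FGFR1 exon 8, the IIIc exon, against exon 13 had 0.077 (FDR 0.00254), and EXOC7 exon 4 against exon 5 had -0.060 (FDR 0.00796). None of the 10 A5SS events was called, where 28.2% were over all genes, nor was the 1 A3SS event, where 23.0% were. No retained intron of these genes was listed, in a table whose events were called in 48.2% of cases.

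The known switch exons went both ways. Of 24 looked for, 16 were listed, in 18 forms because CTNND1 exon 3 and the EXOC7 cassette each come in versions that overlap. A called event was found for 10 of the 18 forms, beside 35.8% of the exons of all genes, 6 with inclusion higher in the first library and 4 with inclusion lower. As above, an exon with more events has more chances of a call. The other 73 exons of the genes included 29 with a call, none of them negative, so that the 4 negative forms were all switch exons. Of these, 3 are overlapping or neighbouring exons of CTNND1 that share junctions, so the count comes from 2 genes. The switch exons were also chosen with earlier results of these data known. The split by sign between switch and other exons is therefore a description only and was not tested. CTNND1 exon 2, not among the switch exons, had negative differences in all its SE events, from -0.238 to -0.004, none called. Its event at -0.080 used the skip from exon 1 to exon 5 that called events of exons 3 and 4 also used.

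**Figure D2:**
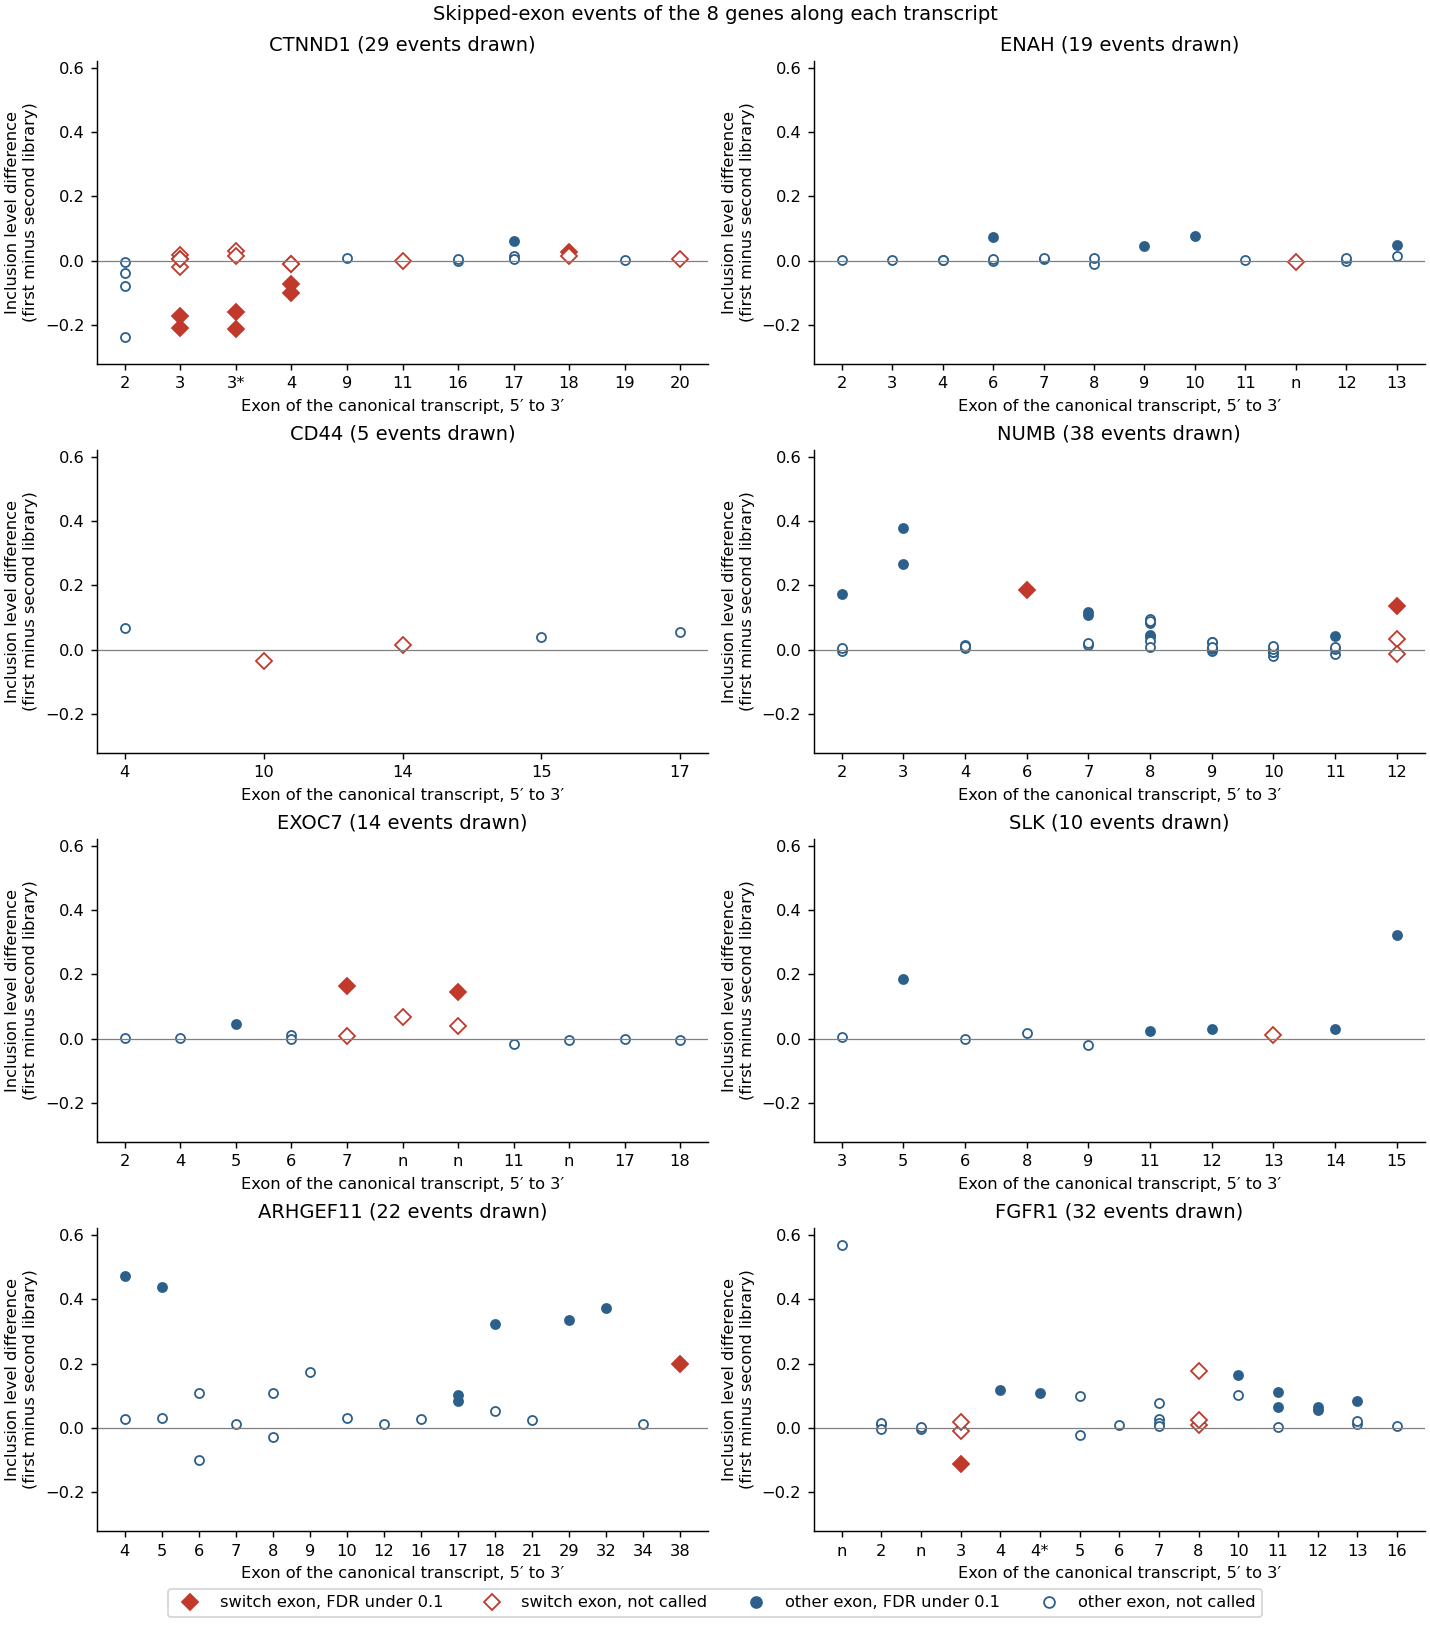
Inclusion level difference (first minus second library) of the SE events, 1 panel a gene, with exons in transcript order and numbered as in the canonical transcript; an asterisk marks an exon that only overlaps the canonical one and n an exon that is not in it; 1 NUMB exon is not drawn. Large positive calls of ARHGEF11 reach 0.473 and lie from exon 4 to exon 38, and in SLK exons 5 and 15 stand above the rest.

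FGFR1, a receptor tyrosine kinase for fibroblast growth factors, is spliced to hold either of a pair of immunoglobulin-like domain endings, the epithelial IIIb or the mesenchymal IIIc. The IIIb exon was not listed. The IIIc exon, exon 8 on chromosome 8 (145 bases), had 3 SE events with differences of 0.178, 0.010 and 0.026, and none was called. Among its 3 MXE events the one against exon 13, given above, and that against exon 10, at 0.046 (FDR 0.0312), were called, and that against exon 6, at 0.007, was not. The alpha exon 3 (267 bases) encodes the outermost immunoglobulin-like domain. Against the direct skip from exon 2 to exon 4 its difference was -0.112 (FDR 8.62e-04), while its 2 other events, at -0.011 and 0.017, were not called. The next exon had the opposite sign: exon 4, in a 90-base and an 84-base form that share the skip from exon 2 to exon 5, had differences of 0.119 (FDR 6.88e-06) and 0.107 (FDR 7.59e-06). These forms differ by 6 bases at a 5′ splice site, and the A5SS event for that choice stood at 0.011 and was not called. A 203-base exon 9 with the same kind of choice stood at -0.036, also not called.

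Further along FGFR1, exons 10 to 13 had 6 called events, between 0.055 and 0.165. Exon 11 (122 bases) stood at 0.003 between exons 10 and 12, at 0.066 between exons 10 and 13 and at 0.110 between exons 10 and 14, the latter 2 called (FDR 3.74e-04 and 2.69e-07). The largest difference among all the members, 0.568, belonged to a 160-base FGFR1 exon outside the canonical transcript and was not called (FDR 0.557).

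CD44, the hyaluronan receptor, carries the longest run of variable exons of the set; epithelial cells include them and the mesenchymal standard form lacks them. Only v6 and v10 were listed, each against the skip from exon 5 to exon 15 that makes the standard form. Exon v6 (129 bases) had a difference of -0.035 (FDR 0.392) and v10 (204 bases) of 0.014 (FDR 0.993). The variable exons v2 to v5 and v7 to v9 were not listed. An MXE event that set v6 against v10 had a difference of -0.564, the largest in size among the members' MXE events, and was not called (FDR 0.197).

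CTNND1 encodes p120-catenin, which holds cadherins at the cell surface, and mesenchymal cells make the long form that starts in exon 3. This gene carried most of the negative calls, 6 of 7. When exon 3 was taken between exons 1 and 4, its 289-base form had a difference of -0.208 (FDR 2.49e-10) and its 180-base form of -0.213 (FDR 1.39e-10), and between exons 1 and 5 the values were -0.171 and -0.161, both called. Between exons 2 and 5 they were 0.004 and 0.015, and between exons 1 and 7 0.017 and 0.029, none called. Exon 4 (72 bases, in frame) had called differences of -0.074 (FDR 1.80e-04) between exons 3 and 5 and of -0.102 between exons 1 and 5. All these called events but that between exons 3 and 5 leave exon 1 at the same 5′ splice site, the one nearest the transcript start. From 5′ splice sites further along exon 1 the 289-base form stood at 0.004 to exon 4 and at -0.019 to exon 5, and exon 4 at -0.010 and -0.009, none called. Alternative 5′ ends of exon 1 gave 8 A5SS events between -0.158 and 0.087, none called.

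The alternative exons further along CTNND1 moved little. Exon A (63 bases, exon 18), near the C terminus, had a difference of 0.028 (FDR 0.0225) between its neighbours and 0.015, not called, from exon 16. Its neighbour, exon 17 (88 bases, out of frame), had the stronger call, 0.060 (FDR 1.10e-14). An MXE event setting exon A against exon 19 had a difference of -0.042 (FDR 3.40e-07). Exon 19 is held by 45 annotated transcripts and skipped by 0. That value weighs exon A against another exon and not against its own skipping, so it is no reversal of the SE values. Exon C (18 bases) stood at -0.001 and exon B (87 bases) at 0.006, both with FDR 1.0.

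NUMB, an endocytic adaptor that restrains Notch signalling and is inherited unequally by dividing cells, has alternative exons in its phosphotyrosine-binding (PTB) domain and its proline-rich region. All 14 of its called SE events had inclusion higher in the first library, at 8 of 11 exons. The 33-base PTB-domain exon (exon 6) had a difference of 0.185 (FDR 3.19e-07) in its only event. The 144-base proline-rich exon (exon 12) had 0.137 (FDR 3.14e-04) against the skip from exon 10 to exon 13, and 0.033 and -0.012, not called, in its 2 other events. Exon 11, tested against the same skip, had 0.044 (FDR 0.00266).

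The larger NUMB values lay before the PTB-domain exon. Exon 3 (85 bases) and exon 2 (132 bases), which lie in the 5′ untranslated region, reached 0.379 (FDR 3.22e-14) and 0.174 (FDR 7.31e-10), each against the skip from exon 1 to exon 4. Exon 3 was at 0.265 (FDR 1.96e-14) between exons 2 and 4, and the 2 other events of exon 2, at -0.005 and 0.005, were not called. The MXE event that set exon 2 against exon 4 had a difference of 0.291 with the FDR listed as 0 when exon 7 was the downstream flank and 0.018, not called, with a nearer flank, and that of exon 2 against exon 3 had -0.096 (FDR 9.15e-04).

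EXOC7 encodes Exo70, the exocyst subunit that brings vesicles to the plasma membrane and binds the Arp2/3 actin nucleator, and its isoforms differ between exons 6 and 8. Exon 7 (93 bases) had a difference of 0.164 (FDR 1.12e-07) and the 69-base cassette between exons 7 and 8 of 0.144 (FDR 1.88e-06) when tested against the direct join of exon 6 to exon 8. The same exons stood at 0.008 (FDR 0.966) and 0.040 (FDR 0.569) when the other of the pair served as flank. Both called events thus share their skipping junction, that from exon 6 to exon 8. The 153-base form of the cassette, whose upstream splice site lies 84 bases earlier, had 0.067 (FDR 0.235), and the A3SS event for that choice stood at 0.004. Exon 5 (223 bases), outside the variable region, was called at 0.045 (FDR 5.13e-06).

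ENAH encodes Mena, which lengthens actin filaments at the leading edge, and its 63-base exon 11a marks the epithelial form. That exon was listed once, with a difference of -0.004 (FDR 0.364), and was not called. The 4 ENAH exons that were called all belong to the canonical transcript: exon 6 (111 bases) at 0.073, exon 9 (58 bases) at 0.046, exon 10 (49 bases) at 0.078 and exon 13 (58 bases) at 0.048, each with the FDR listed as 0. Their differences were small in size, and the gene's SE events as a whole ran from -0.011 to 0.078.

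ARHGEF11 encodes PDZ-RhoGEF, an exchange factor that switches on RhoA, and its 96-base exon 38 near the C terminus is the known switch exon. Exon 38 had a difference of 0.199 (FDR 1.89e-11) in its only event. Among the annotated transcripts of this gene 3 hold the exon and 0 skip it. Other ARHGEF11 exons had larger differences. Exon 32 (168 bases) had 0.371 with the FDR listed as 0, and exon 29 (118 bases) had 0.336 (FDR 3.28e-13), in the stretch around the catalytic Dbl homology and pleckstrin homology domains. The 24-base exon 18 had 0.323 (FDR 0.0114) when exons 17 and 18 were skipped and 0.053, not called, when it alone was.

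The 5′ part of ARHGEF11 held the highest called values of all 8 genes. Exon 4 (50 bases) and exon 5 (58 bases) each break the frame alone and together add 108 bases, which keep it. Against the skip from exon 3 to exon 6 they had differences of 0.473 (FDR 3.96e-06) and 0.438 (FDR 1.79e-07). Taken alone, with the other as flank, they stood at 0.028 (FDR 0.726) and 0.032 (FDR 0.538). As in EXOC7, the called events share their skipping junction.

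SLK, a Ste20-like kinase that acts on focal adhesions and the cytoskeleton, has a 93-base exon 13 in its C-terminal part that differs between epithelial and mesenchymal cells. That exon lay just outside the threshold, at 0.012 (FDR 0.102). Just inside it, among the members' SE events, was FGFR1 exon 10 at 0.165 (FDR 0.0743). The exons around SLK exon 13 were called with values of similar size, 0.025 for exon 11, 0.031 for exon 12 and 0.029 for exon 14. Exon 15 (125 bases) stood apart at 0.321 and exon 5 (73 bases), in the kinase domain, at 0.187, both with the FDR listed as 0. Exon 15 and exon 5 break the reading frame and are not known switch exons.

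Events of the same exon were not always called alike. Of the 91 exons, 42 had more than 1 event. For these the event with the nearest flanks was set beside the event of lowest FDR among the wider ones, a choice that favours the wider ones. In 15 exons the wider event was called and the nearest was not, in 4 the reverse held, in 6 both were called and in 17 neither was. Over all 174 events, 21 of 69 with at most 1 canonical exon between the flanks were called (30.4%) and 30 of 105 with more than 1 (28.6%), so that the shares of calls were close.

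**Figure D3:**
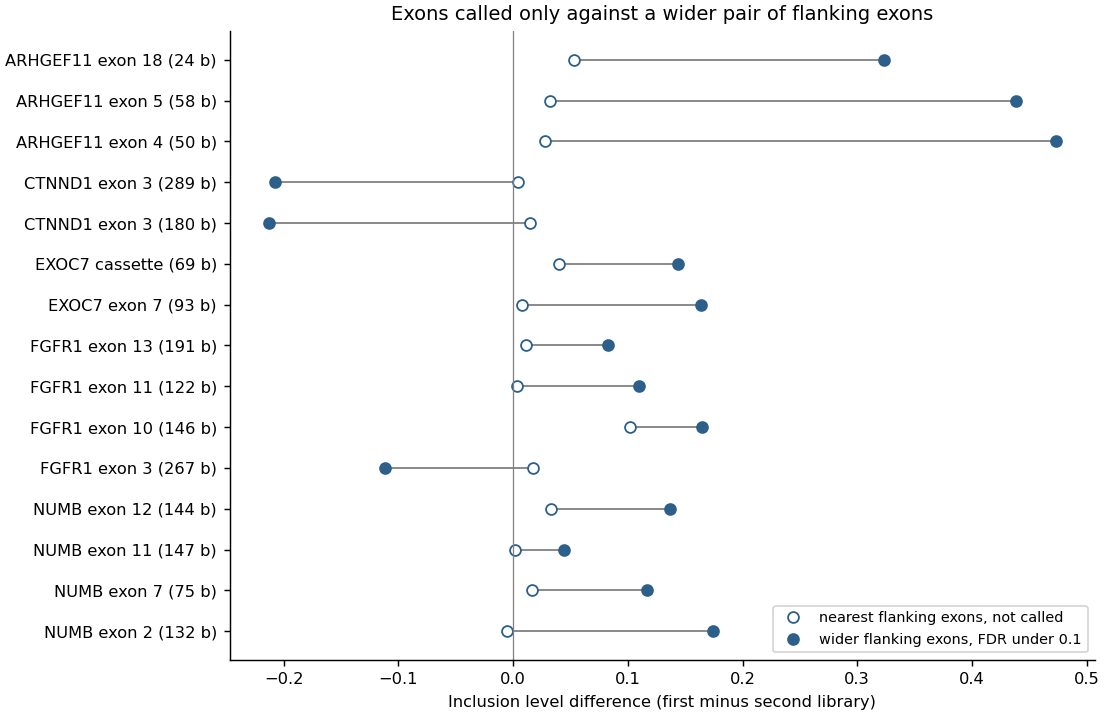
Inclusion level difference (first minus second library) of the 15 exons that were called against a wider pair of flanking exons (filled) and not against the nearest pair (open), exons chosen for that pattern; b, bases. The open points lie between -0.005 and 0.102, and the filled ones reach 0.473 and -0.213.

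Reading frame separated the called exons little. Of the 47 exons whose length is a multiple of 3, 22 were called (46.8%), and of the 44 others 17 (38.6%), where the shares over all genes were 33.4% and 37.2%. The annotation did not separate them either. Exons skipped by some annotated transcript were called in 16 of 38 cases (42.1%) and exons skipped by none in 23 of 53 (43.4%).

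The sequences around the exons were searched on the transcript strand for 4 motifs, in the 250 bases on each side. These bases were not cut at the next exon, so some stretches hold exon bases, as upstream of the shorter of overlapping forms. The motifs were TGCATG, read by RBFOX proteins, and GGTGG, the kind of GU-rich motif that ESRP proteins read. The others were ACTAAC, read by QKI, and TTCTCT, read by PTBP1. Upstream of the 18 switch exon forms GGTGG was present in 11 (61.1%), beside 27.4% of the 73 other member exons and 29.3% of all 67154 exons. Upstream TTCTCT was found at 44.4% of switch forms, 26.0% of the others and 20.2% of all exons. Upstream TGCATG was at 16.7%, 4.11% and 7.13%, and upstream ACTAAC at 11.1%, 5.48% and 2.86%, from few switch forms. Overlapping forms share many of these bases, so the 18 are not independent, and a match is only a match of letters. Downstream, GGTGG was at 22.2% of switch forms and 33.2% of all exons, and TTCTCT at 5.56% and 15.9%. Downstream TGCATG was at 11.1% and 7.28%, and downstream ACTAAC at 5.56% and 2.66%.

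Some exons held several matches in these 250 bases, most of which lie outside the shorter runs printed above. ARHGEF11 exon 38 held 4 GGTGG matches upstream, overlaps counted, and only 40.0% pyrimidines in the 20 bases before the closing AG of the intron, where the median over all exons was 75.0%. CTNND1 exon C held 10 GGTGG matches upstream and 2 TGCATG matches downstream. SLK exon 13 held 3 TGCATG matches upstream, the nearest opening the run printed above, and CTNND1 exon B held 3 ACTAAC matches. The called NUMB PTB-domain exon held no match to the 4 motifs upstream, and the uncalled ENAH exon 11a held none on either side. The 5′ splice site, scored as matches to AAGGTAAGT, the most common base over all exons at each of the 9 positions around the site, had a median of 6 matches at the switch forms, at the other member exons and at all exons.

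Beside the 8 genes, 14 further genes with exons of the same switch were read from a list. All 14 had a called SE event with inclusion higher in the first library, which 65.0% of all genes had. These 14 genes also held more events each than all genes did, which raises the chance of any call. Their calls came to 111 of 321 events (34.6%), beside 27.5% over all genes, with a median difference of 0.022 beside 0.017. A negative call was found as well in 4 of the genes, FGFR2, TCF7L2, MAP3K7 and TJP1, where 8.31% of all genes had one. With more events each, these genes are not like for like with all genes. TJP1, the tight junction scaffold ZO-1, had its lowest FDR at a 144-base exon, with a difference of 0.383. FGFR2, the sister receptor with the same IIIb and IIIc choice, had its lowest FDR at a 71-base exon, at 0.235 (FDR 5.68e-12). No switch exon was looked up in the 14 genes, so the exons named here are not given as switch exons.

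Of 11 splicing regulators of the switch, 8 were listed, and ESRP1, ESRP2 and SRSF1 were not. All 8 had a called SE event, as 66.8% of all genes did, and they too held more events each than all genes did. Their calls came to 42 of 173 events (24.3%), below the 27.5% of all genes, with a median difference of 0.005 beside 0.017. MBNL1 had its lowest FDR, listed as 0, at a 54-base exon with a difference of -0.231, the only negative value among the regulators' events of lowest FDR. A negative call was found in 3 of the 8 regulators, MBNL1, HNRNPM and CELF1, beside 8.31% of all genes. RBFOX2 was at 0.133 for a 40-base exon, QKI at 0.071 and PTBP1 at 0.067. Of the 5 epithelial marker genes only CDH1 and OCLN were listed, with 2 of 10 events called. EPCAM, ESRP1 and ESRP2 were not listed. All 5 mesenchymal marker genes were listed, with 8 of 24 events called. The epithelial share lay below the 27.5% of all genes and the mesenchymal share above it, each from few events. No difference between the marker lists was tested. How much of each gene these cells express was not measured here.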

How the data were processed

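Polyadenylated RNA of 1 control and 1 amiloride-treated HEK293T culture was sequenced by the authors as paired reads and aligned with STAR 2.5.1 to hg19 (GRCh37), per the submitters' processing notes. The authors compared the libraries with rMATS, whose version is not given in the sources used here, and deposited 5 tables. Deposited FDR values (adjusted p-values) and deposited inclusion level differences, a score from -1 to 1, come from the authors' own comparison and were read as deposited. They are not independently tested here, since 30 columns of values per library name no condition and were not used. The deposited effective lengths, also a score, show that the inclusion form counts reads inside the exon: it exceeded the skipping form of 125 bases by the exon length in 100.0% of 113456 SE events. Depth was therefore not reported, and no error can be given.

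Events were selected by gene symbol, and exons were matched to Ensembl canonical transcripts of GENCODE v44lift37 and sequences read from the GRCh37 genome with Python 3.11.15 and pandas 2.3.3. A call is FDR under 0.1, which the study's methods state for its knockdown comparisons; no threshold was found there for amiloride. For a switch exon with several events the value of the event with the lowest FDR is the main one. The rule for naming took every listed switch exon and, per gene and event type, the called events of lowest FDR and of largest size; neighbouring exons were added after their values were seen. The values of 1 NUMB exon enter the counts and are not reported here. The members, the switch exons and the gene lists were chosen with earlier results of these data known. Counting was tested on simulated tables. Alternatives were stricter thresholds, a smallest difference of 0.1, and other ways to pick an exon's event.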

Additional observations from a re-analysis of the deposited data

How the results depend on the processing

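No paired analysis was possible because control and amiloride have 1 library each, and for that reason none was left out either. When calls also had to differ by 0.1 or more, 31 of the 174 SE events stayed called, down from 51. Of the 68 MXE events 5 stayed called, down from 23. Over all genes that setting called 14.5% of SE and 14.8% of MXE events, so the members' SE share was above that of all genes and their MXE share below. Called exons fell from 39 to 25 of 91 at that setting, and to 17 when every event of an exon had to be called. The exon shares over all genes were not computed for these settings. At FDR under 0.05 and under 0.01, 49 and 43 of the 174 SE events were called, beside 24.5% and 19.9% over all genes. For MXE 21 and 16 of the 68 were called, beside 33.8% and 25.2%. The median SE difference moved from 0.013 to 0.014 over distinct exons and to 0.084 over called events, and the MXE median from 0.0125 to 0.007 and 0.081. As the median over all events of an exon, the differences became -0.0075 and -0.073 for the 289-base and 180-base forms of CTNND1 exon 3, -0.042 for CTNND1 exon 4, 0.0215 for CTNND1 exon A, 0.033 for the NUMB proline-rich exon, 0.086 for EXOC7 exon 7, 0.092 for the 69-base EXOC7 cassette, -0.011 for the FGFR1 alpha exon and 0.026 for the FGFR1 IIIc exon. With the nearest flanking exons the call was lost for the forms of CTNND1 exon 3, at 0.004 and 0.015, and for the FGFR1 alpha exon, at 0.017. These small values have the opposite sign but are not called, so they show no reversal. The call was also lost for the NUMB proline-rich exon at 0.033, EXOC7 exon 7 at 0.008 and the 69-base cassette at 0.040. These values come from other junctions of the same exons.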
